A study of Mus musculus with 8 samples.

Results

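The doublecortin family was followed here as 4 genes, Dclk1, Dclk2, Dclk3 and Dcx, which were the rows of the deposited count table that carry these symbols. All 4 were found among the 23284 gene symbols of the table. The cells came from the pancreas of Dclk1-CreERT;tdtomato mice on a CBA x C57BL/6J background, so both groups carry an inducible Cre recombinase driven from Dclk1 and a red fluorescent reporter. The Dclk1+ group has 4 libraries (numbered 1 to 4, cell type given as Dclk1 positive) and the Dclk1- group has 4 (numbered 5 to 8, cell type given as Dclk1 negative). The labels give no sorting gate, treatment or time after induction, age or sex of the mice, and do not say whether a library is 1 mouse or a pool. The p-values therefore cover only the spread among these libraries, which may be technical. Nor do they say whether the Cre was placed in the Dclk1 gene itself, where it could alter the Dclk1 transcript.

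Doublecortin proteins bind and stiffen microtubules through a pair of doublecortin domains. Dcx, the founding member, carries these domains alone and is known from migrating immature neurons. Dclk1, Dclk2 and Dclk3 join doublecortin sequence to a serine/threonine kinase domain that resembles the calcium/calmodulin-dependent kinases. In gut and pancreas Dclk1 is known to mark tuft cells, and also rare epithelial cells that live long, and internal promoter use can give Dclk1 proteins that keep the kinase and lack the doublecortin domains.

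The gene-level counts pool all transcripts of a gene, and for Dclk1 this matters because RefSeq places 2 transcription start windows at the gene, 219 kb apart on chromosome 3. In the GENCODE annotation of the same build, 3 coding Dclk1 transcripts start within 500 bases of the first start and 7 within 500 bases of the internal one, so the values below do not tell the long from the short forms. The windows are shown from 250 bases before to 50 bases after the start, 5′ to 3′ on the gene's strand, for the 3 members matched in the RefSeq promoter table used here, to set the 2 starts of Dclk1 beside those of Dclk2, which differed in the other direction, and of Dcx. Capitals mark each CG dinucleotide, a motif that reads the same on both strands.
Dclk1 first start, GRCm38.p6 chr3:55242114-55242413, plus strand: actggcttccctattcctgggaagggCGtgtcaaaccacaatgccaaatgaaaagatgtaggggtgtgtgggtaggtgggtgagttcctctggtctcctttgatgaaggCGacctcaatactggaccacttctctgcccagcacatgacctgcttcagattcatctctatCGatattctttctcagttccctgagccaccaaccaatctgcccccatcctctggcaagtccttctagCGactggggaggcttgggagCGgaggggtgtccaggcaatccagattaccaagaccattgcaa
Dclk1 internal start, GRCm38.p6 chr3:55461478-55461777, plus strand: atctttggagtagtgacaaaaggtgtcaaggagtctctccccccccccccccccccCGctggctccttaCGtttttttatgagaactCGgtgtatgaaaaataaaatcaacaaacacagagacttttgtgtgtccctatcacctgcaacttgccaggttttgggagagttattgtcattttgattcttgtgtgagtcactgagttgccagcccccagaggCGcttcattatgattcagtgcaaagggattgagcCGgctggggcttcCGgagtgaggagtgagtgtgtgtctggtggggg
Dclk2, GRCm38.p6 chr3:86920835-86921134, minus strand: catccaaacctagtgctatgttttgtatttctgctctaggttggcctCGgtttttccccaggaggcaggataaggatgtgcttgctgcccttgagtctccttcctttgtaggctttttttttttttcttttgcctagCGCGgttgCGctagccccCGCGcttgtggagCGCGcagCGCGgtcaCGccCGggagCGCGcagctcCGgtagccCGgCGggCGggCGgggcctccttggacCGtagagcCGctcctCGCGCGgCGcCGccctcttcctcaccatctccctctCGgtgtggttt
Dcx, GRCm38.p6 chrX:143933170-143933469, minus strand: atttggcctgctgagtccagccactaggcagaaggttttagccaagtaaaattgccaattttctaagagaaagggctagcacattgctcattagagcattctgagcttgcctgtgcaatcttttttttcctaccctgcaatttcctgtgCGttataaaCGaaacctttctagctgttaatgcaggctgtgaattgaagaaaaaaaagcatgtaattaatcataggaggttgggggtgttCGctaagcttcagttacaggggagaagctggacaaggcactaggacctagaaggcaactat
The Dclk2 window holds 27 CG dinucleotides, more than 84.5% of the 32851 RefSeq promoter windows of this length. The first Dclk1 window holds 5 and the internal one 6, and the Dcx window holds 3, against a median of 7 over all windows, of which 94.6% hold at least 1. A second Dcx window in the table overlaps the one shown and also holds 3. The sequences describe the annotation, and no binding or methylation was measured at them here.

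Library totals ran from 7990777 to 10282911 counts in Dclk1+ and from 6353841 to 7242084 counts in Dclk1- libraries. Levels are given as CPM, the usual depth-scaled read count of RNA-seq, with totals corrected by TMM factors for differences in composition. A single count was worth 0.102 to 0.111 CPM for the Dclk1+ group, against 0.121 to 0.193 CPM for the Dclk1- group. Ribosomal RNA (Rn45s) made up 8.90% to 18.3% of counts in Dclk1+ libraries and 9.34% to 34.2% in Dclk1- libraries, with the most in Dclk1- libraries 7 and 8, which also had the fewest genes detected. Summed markers of acinar cells, the main cells of the pancreas, were at 13841 to 58365 CPM for the Dclk1+ group, against 3248 to 66144 CPM for the Dclk1- group.

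Dclk1, Dcx and Dclk3 were higher on average in Dclk1+ libraries, and Dclk2 was lower. In edgeR's quasi-likelihood test none of the 3 members that could be tested passed the adjusted p threshold of 0.05, which 3.49% of the 13274 genes tested passed. Adjusted p-values here are Benjamini-Hochberg values over all genes tested. At an unadjusted p under 0.05 the count was 3 of 3, against 31.9% of all tested genes. With DESeq2 at an adjusted p under 0.05 it was also 3 of 3, against 26.1%. With limma-voom 1 of 3, Dclk2, passed, against 6.64%. These 3 include Dclk1, by which the cells were named, so only Dclk2 and Dcx inform about the family. The adjusted p-values of all genes were packed near the threshold, with the smallest at 0.0467 and 21.1% of genes under 0.1. In these bulk libraries fewer cells of a type and less RNA per cell cannot be told apart.

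**Figure D1:**
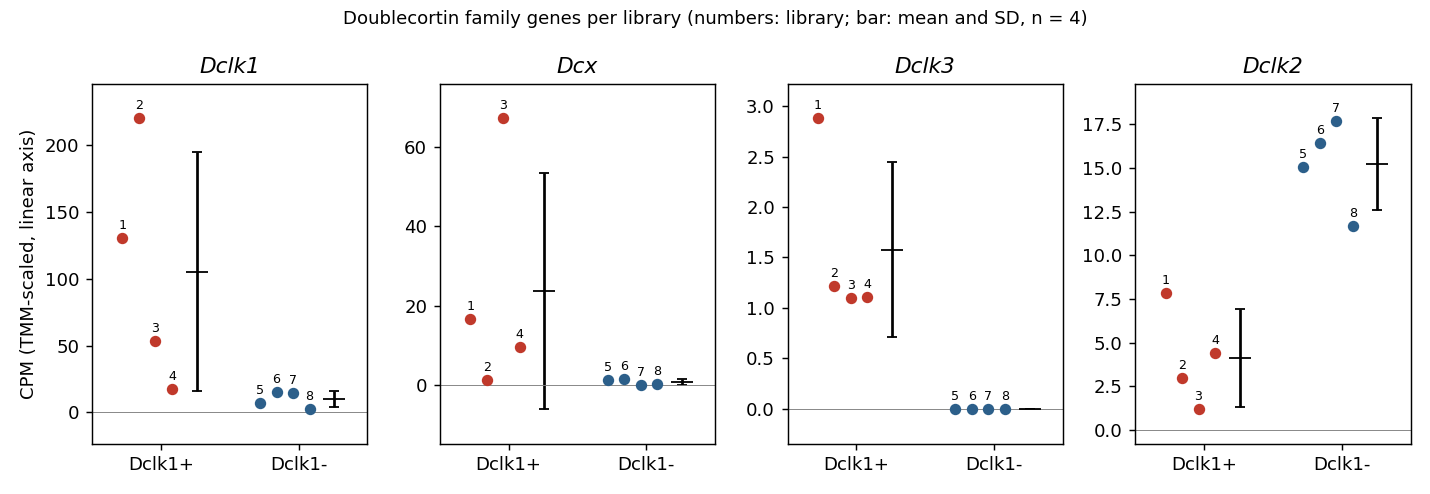
Level of each family gene in every library, in TMM-scaled CPM on a linear axis that differs between panels, for Dclk1+ libraries (red, 1 to 4) and Dclk1- libraries (blue, 5 to 8), with mean and SD beside the points. Dclk1, Dclk3 and Dclk2 do not overlap between the groups, while Dcx in Dclk1+ library 2 lies among the Dclk1- values.

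Dclk1, the kinase that names both groups, had 131, 220, 53.2 and 17.8 CPM in Dclk1+ libraries 1 to 4, against 7.32, 14.997, 14.8 and 2.66 CPM in Dclk1- libraries 5 to 8. The groups did not overlap, yet the Dclk1+ values spanned 12.3-fold and the lowest, library 4, was close to Dclk1- libraries 6 and 7. The means were 105 ± 89.8 CPM for the Dclk1+ group, against 9.95 ± 6.03 CPM for the Dclk1- group (SD, n = 4 each). The edgeR log2 fold change came to 3.40 ± 0.82 (SE, 95% interval 1.57 to 5.23), with an edgeR adjusted p of 0.0503, and an exact two-sided permutation test of the CPM gave p = 0.0286, the smallest that 4 against 4 libraries allow. Since the cells were named by Dclk1, this difference checks the labels and is no finding about the family. Without Dclk1+ library 4 the adjusted p was 0.0127. In the annotation, 2 gene models on the opposite strand share exon bases with Dclk1, and whether counting used strand is not stated, so their reads cannot be told apart from those of Dclk1.

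Dcx, the doublecortin without a kinase, had 16.7, 1.12, 67.1 and 9.64 CPM in Dclk1+ libraries 1 to 4, against 1.17, 1.57, 0 and 0.166 CPM in Dclk1- libraries 5 to 8. Library 3 held most of the Dclk1+ signal, and library 2, which had the most Dclk1, was within the range of the Dclk1- libraries. The counts behind these values were 151, 11, 611 and 87 in Dclk1+ and 8, 13, 0 and 1 in Dclk1- libraries. The edgeR log2 fold change came to 4.93 ± 1.32 (SE, 95% interval 1.97 to 7.89), the largest of the 3 tested members, with an edgeR adjusted p of 0.0564 and an exact two-sided permutation p of 0.0857 (n = 4 each). Without Dclk1+ library 3 the log2 fold change was 3.75 and the edgeR adjusted p 0.133. Dcx lies on the X chromosome, and Xist, the RNA that marks the inactive X, stood at 4891 CPM in Dclk1+ library 3, 3692 CPM in Dclk1+ library 4 and 2680 CPM in Dclk1- library 8, while the other 5 libraries had 1.63 to 4.81 CPM. Among the libraries with high Xist, Dcx was at 67.1 and 9.64 CPM in Dclk1+ and 0.166 CPM in Dclk1-. Among those with low Xist it was at 16.7 and 1.12 CPM in Dclk1+ and 1.17, 1.57 and 0 CPM in Dclk1-. The first set has 1 Dclk1- library only, so no comparison within it was made, and in the second the groups overlapped.

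Dclk3, another kinase of the family, was counted in Dclk1+ libraries alone, with 26, 12, 10 and 10 counts in libraries 1 to 4 and 0 counts in each of Dclk1- libraries 5 to 8. These counts correspond to 2.88, 1.22, 1.10 and 1.11 CPM in Dclk1+ libraries, while a count of 0 allows up to 0.363 to 0.578 CPM in a Dclk1- library (3 counts per library, counting error only). The mean in Dclk1+ libraries, 1.58 ± 0.869 CPM (SD, n = 4), was at least 3.35-fold higher than the mean of these limits. Dclk3 was too low for the filter on low counts and has no adjusted p in the test over all genes. The exact two-sided permutation p of its CPM was 0.0286 (n = 4 each), the smallest possible. When all genes with at least 1 count were tested, its edgeR adjusted p was 0.0460, a threshold that 5.72% of the 18476 genes then tested passed. Of these 18476 symbols 3 (0.0162%) had at least 10 counts in all 4 Dclk1+ libraries and 0 in every Dclk1- library, a rule set after the values were seen, and 42 (0.227%) had counts in all 4 Dclk1+ libraries and in no Dclk1- library. The 3 with at least 10 counts were Dclk3, Akr1c19 and Cadps, an activator of dense-core vesicle release.

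Dclk2, the closest relative of Dclk1 in domain layout, went the other way. It had 7.86, 2.95, 1.21 and 4.43 CPM in Dclk1+ libraries 1 to 4, against 15.1, 16.4, 17.7 and 11.7 CPM in Dclk1- libraries 5 to 8, and no Dclk1+ value reached the lowest Dclk1- value. The means were 4.11 ± 2.82 CPM for the Dclk1+ group, against 15.2 ± 2.61 CPM for the Dclk1- group (SD, n = 4 each), so the Dclk1- libraries were more alike for Dclk2 than for any other detected member. The edgeR log2 fold change came to -1.89 ± 0.57 (SE, 95% interval -3.16 to -0.61), with an edgeR adjusted p of 0.0682 and an exact two-sided permutation p of 0.0286 (n = 4 each). Of the 3 tested members, Dclk2 and Dclk1, which names the groups, did not overlap between the groups. The same held for 21.6% of all tested genes (10.7% higher and 10.9% lower in Dclk1+).

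**Figure D2:**
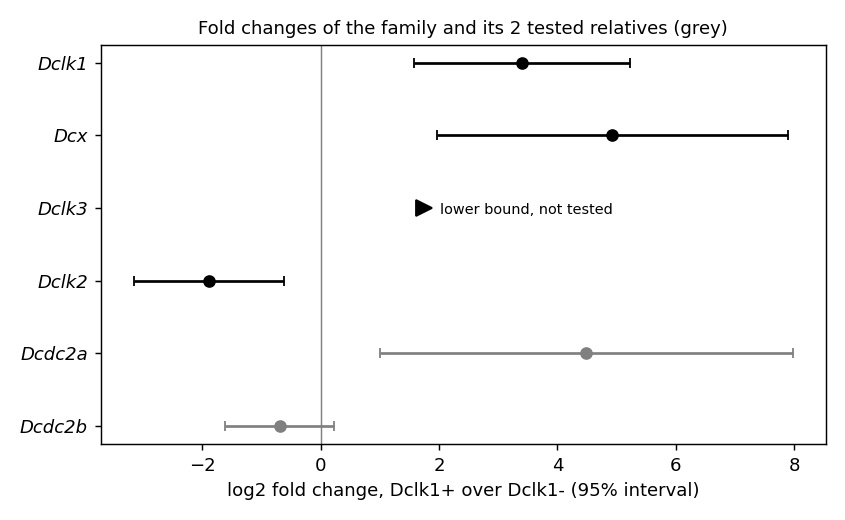
Log2 fold change of Dclk1+ over Dclk1- with its 95% interval from edgeR for the tested family genes (black) and the 2 tested relatives (grey). Dclk3 is drawn as a lower bound (1.75 on the log2 scale) because every Dclk1- library had 0 counts.

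A ratio of 2 genes within a library does not depend on how the library is scaled. Dclk1 had 16.6, 74.6, 44 and 4.03 times the counts of Dclk2 in Dclk1+ libraries 1 to 4, against 0.485, 0.912, 0.837 and 0.229 times in Dclk1- libraries 5 to 8. Because the groups are named by Dclk1, these ratios and the shares that follow are descriptions, and a low Dclk2 share in Dclk1+ libraries goes with many Dclk1 reads in the total. Of the reads of all 4 genes, Dclk1 gave 82.6%, 97.7%, 43.4% and 54.0% in Dclk1+ libraries and 31.1%, 45.4%, 45.6% and 18.4% in Dclk1- libraries. The 95% Wilson intervals, which cover counting error only, were 80.6% to 84.5% in Dclk1+ library 1 and 11.6% to 27.8% in Dclk1- library 8. Dcx gave 54.7% of the family's reads in Dclk1+ library 3 and 0.496% in Dclk1+ library 2, so the makeup of the family varied widely among the Dclk1+ libraries. Dclk2 gave 0.986% to 13.4% in Dclk1+ and 49.8% to 80.5% in Dclk1- libraries.

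**Figure D3:**
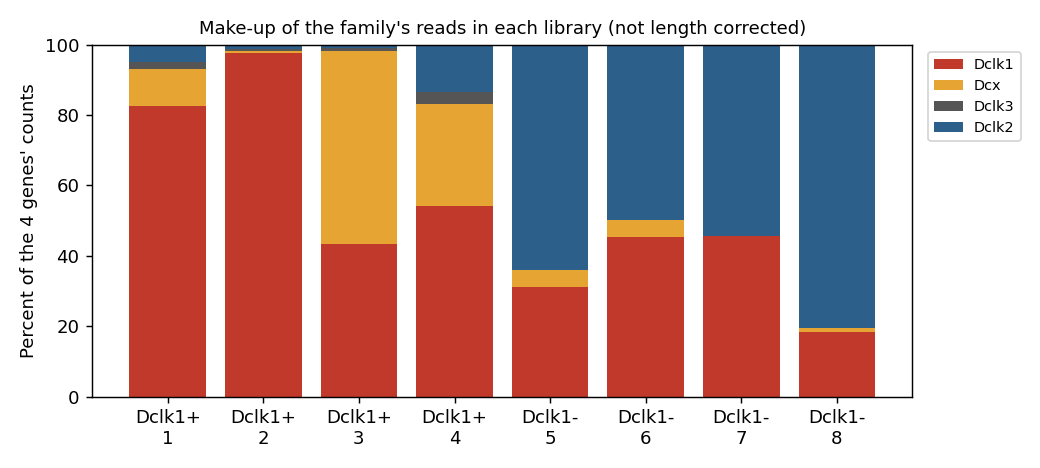
Percent of the reads of the 4 genes that came from each gene, per library, with Dclk1+ libraries 1 to 4 left and Dclk1- libraries 5 to 8 right, without length correction. Dclk2 holds at least 49.8% in each Dclk1- library and at most 13.4% in each Dclk1+ library.

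Per kilobase of exon, with exon lengths from GENCODE on GRCm38 because the annotation used for counting is not given, Dclk1 was the highest of the 4 genes in Dclk1+ libraries at 6.89 ± 5.87 CPM per kb. Dcx followed at 1.87 ± 2.35, Dclk3 at 0.524 ± 0.289 and Dclk2 at 0.390 ± 0.267 CPM per kb (SD, n = 4). In library 3 Dcx was above Dclk1, at 5.31 against 3.48 CPM per kb, and the neighbours in this order overlapped in their spread. In Dclk1- libraries the order was Dclk2 at 1.44 ± 0.248, Dclk1 at 0.651 ± 0.395, Dcx at 0.0575 ± 0.0605 and Dclk3 at 0 CPM per kb. There Dclk2 was above Dclk1 in each of the 4 libraries.

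Among other genes with doublecortin domains, 5 of 7 listed were in the table and 2 had enough counts for a test. Dcdc2a, a ciliary doublecortin protein, was at 260, 32.8, 484 and 81.9 CPM in Dclk1+ libraries 1 to 4, against 18.2, 19.7, 0 and 0 CPM in Dclk1- libraries 5 to 8. The groups did not overlap, and the order of the Dclk1+ libraries was that of Dcx. Its log2 fold change was 4.49 ± 1.55 (SE, edgeR adjusted p = 0.0907). Dcdc2b averaged 14.6 ± 2.50 CPM for the Dclk1+ group, against 23.6 ± 11.5 CPM for the Dclk1- group (SD, n = 4 each, log2 fold change -0.69 ± 0.41, edgeR adjusted p = 0.271), and without Dclk1- libraries 7 and 8 the log2 fold change turned to 0.15. An exon of Dcdc2b overlaps Tmem234 on the opposite strand in the annotation. Dcdc2c had 0 counts in all 8 libraries. Rp1 had 5 counts in Dclk1+ and 1 in Dclk1- libraries in all, and Rp1l1 had 0 in Dclk1+ and 2 in Dclk1- libraries.

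Of 19 tested genes for doublecortin partners and neuronal migration, 2 passed and both were higher, Vldlr and Ppp1r9a. None was called lower. Over all tested genes 2.47% were called higher and 1.02% lower. The list's median log2 fold change was 0.24, against -0.08 over all tested genes. Vldlr, a receptor for the migration signal reelin, had 96.5, 318, 116 and 46.5 CPM in Dclk1+ libraries 1 to 4, against 15.1, 27.2, 9.05 and 2.997 CPM in Dclk1- libraries 5 to 8. Every Dclk1+ value was above every Dclk1- value, and the log2 fold change was 3.40 ± 0.77 (SE, edgeR adjusted p = 0.0492). Ppp1r9a, which encodes the actin-binding protein neurabin, averaged 95.7 ± 50.4 CPM for the Dclk1+ group, against 9.75 ± 7.13 CPM for the Dclk1- group (SD, n = 4 each), and the fitted log2 difference was 3.29 ± 0.75 (SE, edgeR adjusted p = 0.0492). Both calls were lost with the library total alone as scaling (edgeR adjusted p = 0.0538) and without Dclk1- libraries 7 and 8 (0.140 for Vldlr and 0.126 for Ppp1r9a). They were also lost when any single library other than Dclk1+ library 4 was left out, with edgeR adjusted p of 0.0648 to 0.112 for Vldlr and Ppp1r9a. The dynein regulator Pafah1b1 was at 176 ± 32.5 CPM for the Dclk1+ group, against 161 ± 52.5 CPM for the Dclk1- group (edgeR adjusted p = 0.811).

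Of 21 tested genes for microtubule-associated proteins none passed in edgeR, while 8 had an unadjusted p under 0.05 and were higher and 0 were lower. Counted in either direction, that is close to the 31.9% of all tested genes at this threshold. The share of all tested genes that were higher at this threshold was not taken. Over the list the log2 fold change had a median of 0.69, against -0.08 over all tested genes. Its most abundant genes, Mtap4, Mapre1 and Mapre2, had log2 fold changes of 0.69 ± 0.33, 0.10 ± 0.27 and 0.58 ± 0.31 (SE, edgeR adjusted p = 0.181, 0.8286 and 0.231). Mtap1b, a neuronal microtubule-binding protein picked after its values were seen, had 395, 387, 83.9 and 39.5 CPM in Dclk1+ libraries 1 to 4, against 21.2, 37.9, 17.9 and 1.33 CPM in Dclk1- libraries 5 to 8 (log2 fold change 3.53 ± 1.002, SE, edgeR adjusted p = 0.0623). As with Dclk1, libraries 1 and 2 were the highest and library 4 was close to Dclk1- library 6.

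Of 13 tested relatives of the Dclk kinase domain, the calcium/calmodulin-dependent and death-associated kinases, none passed in edgeR, and 2 were higher and 0 lower at an unadjusted p under 0.05, against 31.9% of all tested genes in either direction. The list's median log2 fold change was 0.02. Its most abundant genes, Camk1d and Camk2d, had log2 fold changes of -0.22 ± 0.58 and -0.49 ± 0.34 (SE, edgeR adjusted p = 0.816 and 0.337). Dapk1, a death-associated kinase, averaged 128 ± 83.6 CPM for the Dclk1+ group, against 28.9 ± 15.03 CPM for the Dclk1- group (SD, n = 4 each), and its log2 fold change, 2.15 ± 0.55 (SE), had an edgeR adjusted p of 0.0529.

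No gene was among the 5 nearest in profile of more than 1 of the 3 tested members. Likeness was measured as the root mean square difference of log2 CPM over the 8 libraries, after subtracting each gene's own mean, among all tested named genes. The 5 genes closest to Dclk1 were Zfhx4, Has2, Adm, Ltbp1 and Zfp521, with differences of 0.221 to 0.323 log2 units. Zfhx4, a zinc finger homeobox gene, had 277, 519, 147 and 38.8 CPM in Dclk1+ libraries and 16.8, 47.4, 28.5 and 7.66 CPM in Dclk1- libraries. Has2 makes hyaluronan, Adm encodes the peptide adrenomedullin and Ltbp1 binds latent TGF-beta. The 5 closest to Dcx were Kcne3, Vtcn1, Spp1, Ppp1r1b and Apoc1, at 0.269 to 0.466 log2 units. Kcne3, a potassium channel subunit of epithelia, had 14.6, 1.02, 61.5 and 12.4 CPM in Dclk1+ libraries and 0.732, 2.06, 0 and 0.166 CPM in Dclk1- libraries, and Spp1 encodes osteopontin. The 5 closest to Dclk2 were Cenpq, Galnt12, Abca7, Ppp3cc and Mars2, at 0.262 to 0.432 log2 units. Dclk1 and Dcx were 2.32 log2 units apart, and Dclk1 ranked 2872 among the 12047 genes ordered by closeness to Dcx, while Dcx ranked 8296 by closeness to Dclk1. That distance was larger than the spread of Dclk1 about its own mean, 1.96 log2 units, but smaller than that of Dcx, 2.58.

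**Figure D4:**
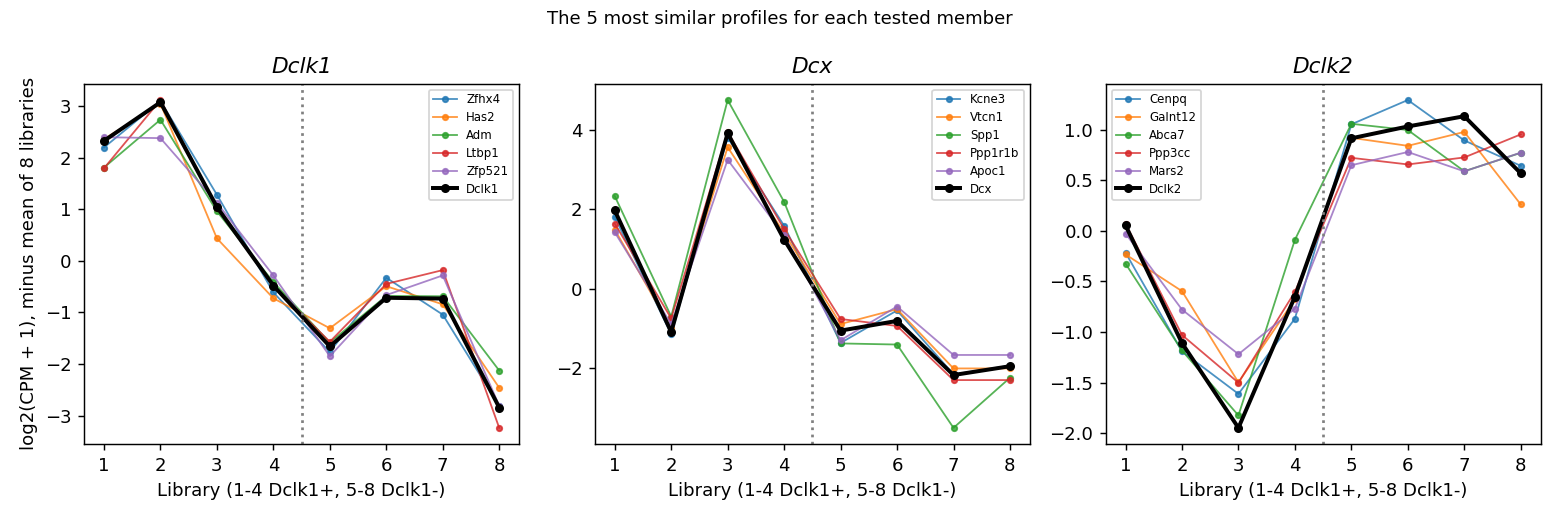
Centred log2(CPM + 1) over the 8 libraries for Dclk1, Dcx and Dclk2 (black) and the 5 genes most like each, with Dclk1+ libraries left and Dclk1- libraries right of the dotted line. Dclk1 peaks in library 2 where Dcx is at its lowest Dclk1+ value, the closeness itself was measured with a prior count of 2, and the lines only aid the eye, since libraries of a group have no order.

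Markers of several cell types moved with these genes. The summed CPM of 10 duct markers was 1144, 428, 4757 and 857 in Dclk1+ libraries 1 to 4 and 53.0 to 137 in Dclk1- libraries. Like Dcx, the sum was highest in library 3 and lowest in library 2 of the Dclk1+ group. Spp1, among the 5 genes nearest to Dcx in profile, gave 607, 73.2, 3250 and 549 CPM of these Dclk1+ sums. All 9 tested duct markers had a positive log2 fold change, and 3 of them, Sox9, Spp1 and Bicc1, were called higher, against 2.47% of all tested genes. These calls, too, were lost with the library total alone as scaling, without Dclk1- libraries 7 and 8, and without any single library other than Dclk1+ library 4. The sum of 8 fibroblast markers was 10575, 40534, 16962 and 6315 CPM for the Dclk1+ group, against 1165 to 8528 CPM for the Dclk1- group. Like Dclk1 it was highest in library 2 and lowest in library 4 of the Dclk1+ group. Libraries 1 and 3 were in the opposite order, with Dclk1 at 131 and 53.2 CPM. All 8 fibroblast markers had a positive log2 fold change. The most abundant were Fbn1 and Dcn, neither of them called. Their part in the values of Dcx and Dclk1 was not tested.

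Lymphocyte markers were, like Dclk2, lower in every Dclk1+ library than in any Dclk1- library when summed over a list. The summed CPM of 8 B lymphocyte markers was 226, 42.5, 29.8 and 581 in Dclk1+ libraries 1 to 4 and 2365 to 3240 in Dclk1- libraries, and that of 8 T lymphocyte markers was 15.7 to 571 in Dclk1+ and 782 to 3373 in Dclk1- libraries. All 8 of each list had a negative log2 fold change, and 3 B cell genes and 1 T cell gene were called lower, against 1.02% of all tested genes, calls lost under the same alternatives. The part of these cells in the Dclk2 values was not tested.

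Markers of neurons, the cells in which Dcx is best known, also moved with the groups. The 12 neuron markers summed to 13.5 to 29.6 CPM for the Dclk1+ group, against 1.17 to 8.49 CPM for the Dclk1- group. The sums did not overlap between the groups, and were 17.0, 27.3, 29.6 and 13.5 CPM in Dclk1+ libraries 1 to 4. The highest was in library 3, as for Dcx, but library 2, with the lowest Dcx of the Dclk1+ group, came next. The 3 tested markers, Uchl1, Ncam1 and Gap43, had log2 fold changes of 2.60, 1.47 and 2.25, and none was called (edgeR adjusted p = 0.163, 0.372 and 0.337). Stmn2, a growth-associated gene of neurons, had 119, 1, 42 and 9 counts in Dclk1+ libraries 1 to 4, against 1, 7, 4 and 0 in Dclk1- libraries 5 to 8. Elavl3, an RNA-binding protein of neurons, had 0, 0, 1 and 3 counts in Dclk1+ libraries and 0 in every Dclk1- library. Elavl4 and Prph also had 0 counts in every Dclk1- library. Tubb3, a neuronal tubulin, had 0, 4, 3 and 14 counts in Dclk1+ libraries 1 to 4, against 0, 2, 18 and 3 in Dclk1- libraries 5 to 8. The part of neurons in the Dcx values was not tested. Schwann and glial markers summed to 162 to 1144 CPM for the Dclk1+ group, against 145 to 206 CPM for the Dclk1- group, and Sox10 had counts in Dclk1+ library 3 alone, with 11. Endocrine markers, led by Sst and Gcg, summed to 0.996 to 558 CPM for the Dclk1+ group, against 2.34 to 119 CPM for the Dclk1- group.

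Tuft cell markers overlapped between the groups when summed. The 14 tuft markers in the table summed to 163 to 578 CPM for the Dclk1+ group, against 449 to 549 CPM for the Dclk1- group. The largest means in Dclk1- libraries were those of Vav1, Plcb2 and Lrmp, at 171, 149 and 102 CPM. In Dclk1+ libraries these 3 averaged 34.3, 29.7 and 20.5 CPM, and Ptgs1 had the largest mean. The sums therefore say little about markers with few counts, such as Trpm5 and Pou2f3. Of the 6 tested markers 2 had a positive log2 fold change. Trpm5, the taste channel of tuft cells, had 0, 4, 4 and 4 counts in Dclk1+ libraries 1 to 4 and 4, 4, 0 and 3 in Dclk1- libraries 5 to 8. Pou2f3, the tuft cell transcription factor, had 15, 14, 10 and 10 counts in Dclk1+ libraries 1 to 4, against 1, 0, 0 and 8 in Dclk1- libraries 5 to 8, or 1.10 to 1.66 CPM in Dclk1+ and 0 to 1.33 CPM in Dclk1-. It was too low to be tested, and Dclk1- library 8 lay within the Dclk1+ range. Gnat3 and Chat had 0 counts in all 8 libraries. Ptgs1, which encodes cyclooxygenase 1, was the 1 tuft marker called, at 185 ± 145 CPM for the Dclk1+ group, against 28.5 ± 15.05 CPM for the Dclk1- group (SD, n = 4 each, edgeR adjusted p = 0.0490). Like all other calls of this fit it was lost with the library total alone as scaling, without Dclk1- libraries 7 and 8, and without any single library other than Dclk1+ library 4. At an unadjusted edgeR p under 0.05, 3 of the 6 tested tuft markers were lower in Dclk1+ (Plcb2, Vav1 and Lrmp) and 1, Ptgs1, was higher. Of all tested genes 31.9% passed this threshold in either direction. Like the lymphocyte sums, the means of Plcb2, Vav1 and Lrmp were lower in Dclk1+. The part of tuft cells or other cells in their values was not tested.

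Of the other lists given here, 8 markers of pericytes and smooth muscle, led by Myh11 and Pdgfrb, summed to 137 to 1952 CPM in Dclk1+ libraries and to 37.3 to 119 CPM in Dclk1- libraries, which did not overlap. Those of endothelium, led by Ptprb and Pecam1, summed to 80.5 to 3096 CPM in Dclk1+ libraries and to 175 to 1112 CPM in Dclk1- libraries. Macrophage markers, led by Lyz2 and Mrc1, ranged over 58.9 to 6898 CPM in Dclk1+ libraries and over 454 to 1151 CPM in Dclk1- libraries, so both of these lists overlapped between the groups. No gene of these 3 lists was called, and neither was an acinar, neuron, endocrine or glial marker.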

How the data were processed

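Per the labels' protocols, RNA with an integrity number above 8 was amplified (Ovation RNA-Seq V2) and made into TruSeq libraries. The deposited values are raw read counts per gene symbol. Of the tools in the submitters' processing notes, HTSeq 0.6.1 and bcl2fastq 1.8.4 stand for every library, as does build mm9. The notes differ in Bowtie2 2.0.0 with TopHat2 2.0.4 (Dclk1- library 5 alone) and TopHat with Bowtie 0.12.7 (the rest). Annotation and strand setting are not given, and no mm9 coordinate is printed.

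The test used edgeR 4.0.16 (R 4.3.3) (filterByExpr with minimum count 10 and minimum total 15, TMM, quasi-likelihood F test on the group alone, standard errors from the F statistic). CPM use TMM-scaled totals of all counts, and log2 CPM a prior count of 2. Alternatives were DESeq2 1.42.0, limma-voom (limma 3.58.1), other scalings and filters, and leaving out libraries.

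The members and gene lists were chosen with earlier results of these data known. By rule the text names the members, the doublecortin relatives, called genes of 3 pathway lists (or their 3 most abundant), marker list sums and the 5 nearest profiles. Other genes were picked after their values were seen. A few marker results are not reported here.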

Additional observations from a re-analysis of the deposited data

Results flagged for a closer look

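Of 14 sets of 4 libraries checked among the family genes and their relatives, 2 had 1 library far from the other 3. Chance flags about 1 in 20 sets of normally distributed values, a rate that does not hold for counts near 0. Dclk3 in Dclk1+ library 1, at 2.88 CPM, stood apart from the 1.10 to 1.22 CPM of the other Dclk1+ libraries. Rp1 in Dclk1- library 6, at 0.121 CPM, rests on 1 count against 0 in the other Dclk1- libraries, a pattern that is always flagged.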

How the results depend on the processing

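The sign of the log2 fold change of Dclk1, Dclk2 and Dcx was the same under every alternative run, while the side of the 0.05 threshold was not. Dclk1 passed with DESeq2 size factors in edgeR (3.51, edgeR adjusted p = 0.0454), without Rn45s (3.42, 0.0490), with no filter (3.52, 0.0406), with the stricter filter (3.44, 0.0449) and in DESeq2 (3.52, 0.000177). Leaving out 1 library gave 2.75 to 3.86, and of these fits only that without Dclk1+ library 4 passed (3.86, edgeR adjusted p = 0.0127). Dclk2 passed in DESeq2 (-1.79, adjusted p = 0.0114) and limma-voom (-2.16, 0.0488). Dcx passed with no filter (4.98, edgeR adjusted p = 0.0458), in DESeq2 (5.11, 0.000295) and in edgeR without Dclk1+ library 4 (5.36, 0.0292). Leaving out 1 library gave Dcx 3.75 to 5.78, and no other such fit passed. It was below the stricter filter. Dclk3 gained a test only with no filter (edgeR adjusted p = 0.0460, with the bound still at 1.75 on the log2 scale), so the stricter filter, DESeq2 and limma-voom gave it no value. Without Dclk1- libraries 7 and 8, an alternative chosen after seeing the data, the edgeR adjusted p was 0.152 for Dclk1, 0.180 for Dclk2 and 0.185 for Dcx.

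Over all genes, 328 were called higher and 135 lower in Dclk1+. The calls were 665 higher with DESeq2 size factors, 793 higher and 264 lower with no filter, 608 and 237 with the stricter filter, and 2290 and 1132 in DESeq2. In limma-voom there were 407 higher and 475 lower. With the library total alone as scaling, and without Dclk1- libraries 7 and 8, edgeR called 0 higher and 0 lower, with 3961 and 3588 genes at an unadjusted p under 0.05. Leaving out 1 library gave 0 to 1640 higher and 0 to 841 lower, and only the fit without Dclk1+ library 4 had calls, while the others had 3092 to 4005 genes at an unadjusted p under 0.05. Among named genes that were not called, the sign turned for Dcdc2b without Dclk1- libraries 7 and 8 (0.15), Mapre1 without Dclk1+ library 2 (-0.018, with -0.018 to 0.297 over single libraries left out) and Camk1d without Dclk1+ library 1 or 3 (0.04 and 0.17, with -0.82 to 0.17 over single libraries left out). The cause of these changes was not tested. No paired analysis was possible because the groups share no replicate numbers. A count of 0 in a Dclk1- library allows Dclk3 at up to 0.363 to 0.578 CPM.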
